A study of Mus musculus with 7 samples.

Results

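The 36 genes described here build cholesterol and fatty acids, control their synthesis, or carry cholesterol out of the cell. They were chosen by name, and a gene was kept if it had at least 10 counts in 3 or more of the 7 libraries; all 36 of 36 met that rule, out of 55385 gene IDs in the count files. RNA came from macrophages sorted by flow cytometry out of intracranial gliomas of QPP7, a mouse glioma line, in C57BL/6 mice. In 3 libraries the injected QPP7 cells carried a hairpin against Chi3l1 (shChi3l1), and in 4 they carried the control hairpin (shSC). The hairpin was in the tumour cells, the macrophages of both groups came from hosts of the same strain, and the labels name neither the animals' age nor whether a library came from 1 mouse. The p-values below thus rest on library-to-library spread alone, and some of that spread may be technical. In RNA from sorted populations, fewer cells of a type and less RNA per cell cannot be told apart.

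Cholesterol is made from acetyl-CoA through mevalonate, farnesyl diphosphate, squalene and lanosterol. When membrane sterol falls, SCAP escorts the SREBP transcription factors from the endoplasmic reticulum to the Golgi, where they are cut free to switch on the synthesis genes; INSIG proteins hold SCAP back when sterol is plentiful. Oxysterols that build up with excess cholesterol activate the liver X receptors (LXR), which raise the efflux transporters ABCA1 and ABCG1, the ubiquitin ligase MYLIP and the phospholipid-remodelling enzyme LPCAT3. LXR also acts on Srebf1 and Scd1, so these are shared between the SREBP and LXR arms. Macrophages in tumours of the brain take up lipid from dying cells and myelin, and efflux is their main way of disposing of sterol.

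Promoter sequence is shown for 1 gene of each kind of behaviour described below: a mevalonate enzyme gene, the gene of the SREBP2 transcription factor, a fatty acid synthesis gene and an efflux gene. Each window runs from 250 bases before to 50 bases after the RefSeq start site and is written in the direction of the gene. Capitals mark the core of a sterol regulatory element (CACNCCA) and the NF-Y box (CCAAT), each searched on both strands; NF-Y is a cofactor of SREBP. The windows are as follows.
Hmgcs1 (RefSeq GRCm38.p6, chr13:119690101-119690400, plus strand): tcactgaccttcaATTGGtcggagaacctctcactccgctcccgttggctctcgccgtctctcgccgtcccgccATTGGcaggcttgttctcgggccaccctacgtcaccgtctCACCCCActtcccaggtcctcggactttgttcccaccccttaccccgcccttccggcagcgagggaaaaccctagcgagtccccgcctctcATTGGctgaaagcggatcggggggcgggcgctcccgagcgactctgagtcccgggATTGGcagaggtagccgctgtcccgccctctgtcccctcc
Srebf2 (RefSeq GRCm38.p6, chr15:82147019-82147318, plus strand): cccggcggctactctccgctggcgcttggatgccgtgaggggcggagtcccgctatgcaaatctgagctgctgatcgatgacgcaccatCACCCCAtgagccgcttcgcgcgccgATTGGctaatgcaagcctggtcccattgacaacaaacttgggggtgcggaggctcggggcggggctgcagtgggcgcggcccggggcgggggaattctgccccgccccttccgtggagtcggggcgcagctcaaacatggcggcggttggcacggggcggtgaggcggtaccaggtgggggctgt
Fasn (RefSeq GRCm38.p6, chr11:120824498-120824797, minus strand): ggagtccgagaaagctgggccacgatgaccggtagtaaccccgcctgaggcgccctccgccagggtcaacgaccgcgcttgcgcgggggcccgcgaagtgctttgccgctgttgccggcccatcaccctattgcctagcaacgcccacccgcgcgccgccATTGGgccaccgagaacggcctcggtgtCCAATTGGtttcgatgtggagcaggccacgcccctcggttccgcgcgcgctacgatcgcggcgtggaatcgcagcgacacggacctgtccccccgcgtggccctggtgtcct
Abca1 (RefSeq GRCm38.p6, chr4:53159846-53160145, minus strand): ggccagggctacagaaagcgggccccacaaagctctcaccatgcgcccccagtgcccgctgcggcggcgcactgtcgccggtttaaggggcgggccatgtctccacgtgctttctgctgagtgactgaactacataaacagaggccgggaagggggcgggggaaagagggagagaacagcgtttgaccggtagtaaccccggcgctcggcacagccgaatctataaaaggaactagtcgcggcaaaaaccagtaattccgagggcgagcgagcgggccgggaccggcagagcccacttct

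The Hmgcs1 window held 5 such matches, Srebf2 2, Fasn 3 and Abca1 0. Of the 36 genes, 29 had a window in the RefSeq table, 15 of them among the 19 SREBP targets (the 17 sterol synthesis enzymes, Insig1 and Stard4). Where a gene had several windows, the one listed first was used. An NF-Y box was present in 14 of the 15 SREBP target windows, or 93.3%, against 37.9% of 27025 windows over all genes. A GC box (GGGCGG), which binds Sp1, was also present in 14 of 15, against 35.9%. Both boxes occurred in other windows too: in the 3 LXR target windows the NF-Y box was in 2 and the GC box in 3. Of 4 fatty acid gene windows, 2 had the NF-Y box and 2 the GC box. The core of the sterol element was in 3 of 15, or 20%, against 18.3%, and its longer form TCACNCCAC, which contains the core, only in that of Hmgcs1, 6.67% against 1.22%. An E-box (CACGTG), which SREBP can also bind, was in 3 of 15 (20%) against 7.24%. An LXR element of the direct-repeat type (AGGTCA, 4 bases, AGGTCA, with 1 mismatch allowed in each repeat) was in 0 of the 3 LXR target windows and in 1.75% of all windows. That count depends on the mismatch limit and does not show that the windows lack an LXR element. On the opposite strand the Abca1 and Fasn windows both hold GGGTTA, 4 bases, CGGTCA, which the limit leaves out because GGGTTA differs at more than 1 base. The matches describe letters in these windows and do not show binding.

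**Figure D1:**
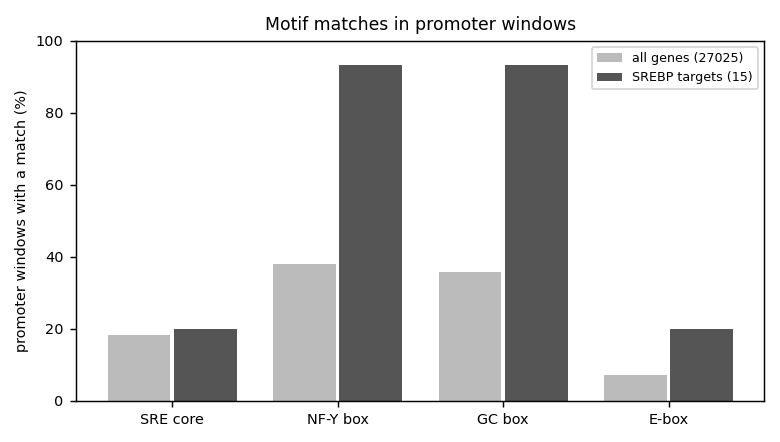
Share of promoter windows (%, bars start at 0) with at least 1 match to each motif, for 27025 windows over all genes and for the 15 SREBP target windows. The NF-Y box and the GC box were each present in 93.3% of SREBP target windows, against 37.9% and 35.9% of all windows.

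Libraries held 19169129 to 36502664 reads assigned to genes. Levels are given as CPM, read counts relative to a library total adjusted by TMM factors. All 10 of 10 macrophage markers were detected in every library, and their summed level was 22213 to 43822 CPM in shChi3l1 and 15689 to 28078 CPM in shSC libraries. Reads for Chi3l1 itself (named Chil1 in the annotation) were scarce, 7 to 31 per library, at 0.799 ± 0.466 CPM (SD, n = 3) in shChi3l1 against 0.800 ± 0.021 CPM (SD, n = 4) in shSC. They do not check the knockdown, since the tumour cells carried the hairpin. Libraries differed in how they represented long transcripts: genes with over 5000 exon bases lay at a median of -0.50 (log2, centred on each gene's mean) in shChi3l1 1 and -0.45 in shSC 1, against -0.12 to 0.44 in the other 5 libraries. Genes under 2000 bases were at 0.81 and 0.61 in the same 2 libraries and at -0.49 to 0.015 in the others. Those replicate 1 libraries, 1 from each group, therefore stood apart, and for some results values without them are also given.

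No lipid gene passed the test between hairpins. The fitted differences farthest above 0 were those of the acyl-CoA synthetase gene Acsl1, the efflux gene Abca1 and the desaturase gene Scd1, and farthest below 0 those of Sqle, Fdps and Fdft1, all sterol synthesis genes. At an adjusted p of 0.05 over all 15448 tested genes, edgeR's quasi-likelihood test called 0 of the 36, against 0% of all genes called. At an unadjusted p under 0.05 it also had 0 of 36, against 229 genes in all (1.48%; 0.906% higher and 0.576% lower in shChi3l1), and every member had an adjusted p of 0.9998. DESeq2's Wald test called 1 gene, none of the 36, with 350 at an unadjusted p under 0.05, and limma's voom called 0, with 701. In 0 of 36 genes did the groups fail to overlap, against 2.49% of all genes (1.24% higher and 1.25% lower in shChi3l1). The 36 log2 fold changes, shChi3l1 minus shSC, were above 0 for 21 and below 0 for 15, a share of 58.3% above 0 against 57.6% of all genes. Their median was 0.032, against 0.066 over all tested genes. These values do not show that the genes were unchanged, since standard errors ran from 0.29 to 0.95. On simulated counts the same test called 0% of 2-fold and 24% of 4-fold changes.

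SREBP targets and LXR targets were compared next, because one arm runs when sterol is scarce and the other when it is in excess. The 19 SREBP targets had a median of -0.030 (log2 fold change), with 8 above 0 and 11 below. This set leaves out the fatty acid genes, so it stands only for the sterol part of the SREBP arm. The 4 LXR targets (Abca1, Abcg1, Mylip and Lpcat3) had a median of 0.23, with 3 above 0 and 1 below. The difference between these medians, SREBP minus LXR, was -0.26 on the log2 scale; a test was not made, because the genes were chosen with earlier results known. Without shChi3l1 2 the LXR median was -0.12 and the difference was 0.031. With the replicate block and length trend offsets, which keep that library, they were -0.051 and -0.049. Without shChi3l1 1 the median and the difference were 0.53 and -0.71, and without both replicate 1 libraries 0.49 and -0.65. The SREBP count differed between scalings, as the share over all genes did. With DESeq2 size factors or upper quartile factors 4 of 19 were above 0, while the share of all genes above 0 went from 57.6% to 52.2% and, with DESeq2 factors, their median from 0.066 to 0.018. With no low-count filter it was 3 of 19, with 44.5% of all genes above 0 and their median at -0.086. Without shChi3l1 3 and shSC 4 it was 13 of 19.

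**Figure D2:**
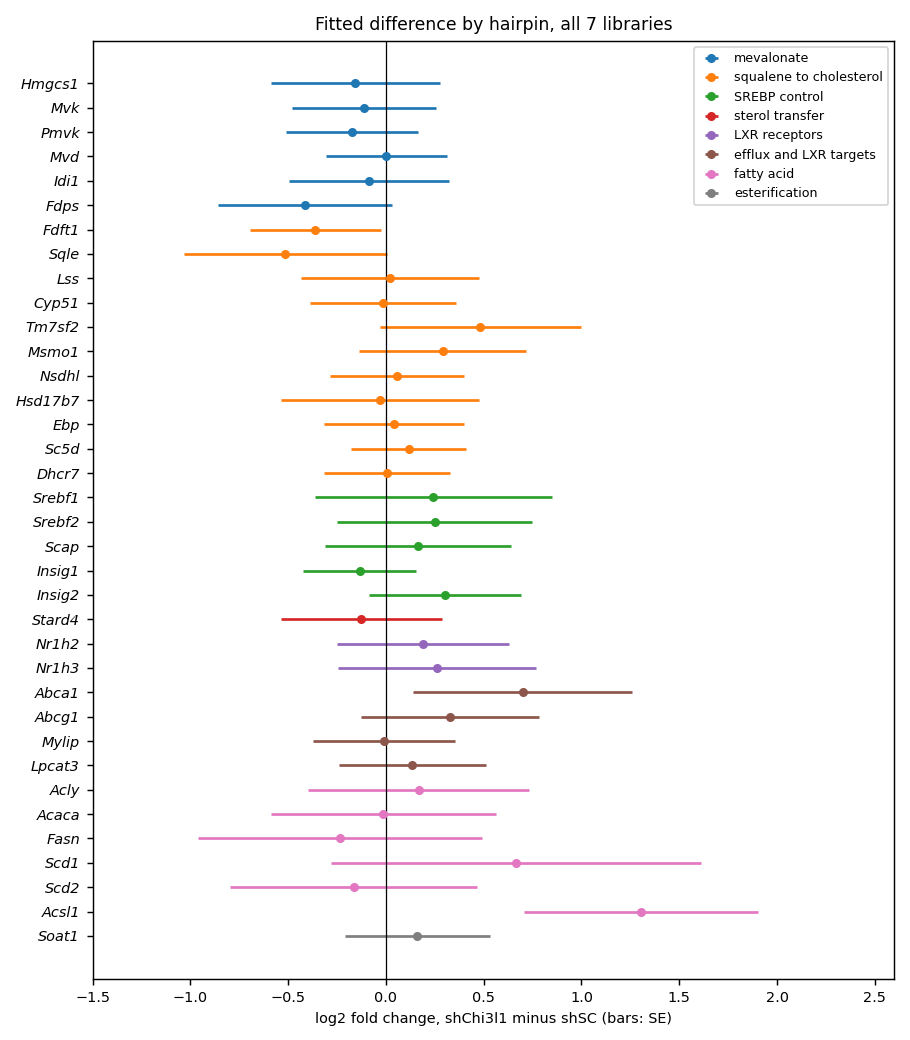
Fitted log2 fold change (horizontal axis, shChi3l1 minus shSC, edgeR over all 7 libraries) of each of the 36 genes, coloured by role, with bars of 1 SE. All bars but those of Acsl1, Abca1 and Fdft1 reach 0; Acsl1 at 1.31, Abca1 at 0.70 and Scd1 at 0.67 lie farthest to the right and Sqle at -0.51 farthest to the left.

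Among the mevalonate genes, 5 of 6 had a log2 fold change below 0, against 57.6% of all genes above 0, and none reached an unadjusted p under 0.05. Over the alternatives the number of the 6 above 0 ran from 0 to 4: it was 4 without shChi3l1 3 and 3 without shChi3l1 2. Hmgcs1, which encodes HMG-CoA synthase and opens the pathway (ENSMUSG00000093930.2, mm10 chromosome 13, 119690379 to 119708260, plus strand), had 14.0, 33.6 and 16.5 CPM in shChi3l1 1, 2 and 3 and 14.0, 25.6, 22.6 and 33.0 CPM in shSC 1 to 4. It was low in shChi3l1 1, shChi3l1 3 and shSC 1 and high in shChi3l1 2 and shSC 4, and the groups overlapped, with a log2 fold change of -0.16 (SE 0.43). Pmvk, the phosphomevalonate kinase gene, was the most abundant of the 6 per length, at 24.1 CPM per kilobase of exon over all libraries. It had 53.6, 27.8 and 34.3 CPM in shChi3l1 1, 2 and 3 and 48.1, 35.0, 51.5 and 39.3 CPM in shSC 1 to 4. The highest and lowest Pmvk levels both came from the shChi3l1 group, and its log2 fold change was -0.17 (SE 0.34). Idi1, which encodes isopentenyl-diphosphate isomerase, had 10.3, 5.11 and 4.35 CPM in shChi3l1 1, 2 and 3 and 6.31, 7.79, 7.23 and 6.54 CPM in shSC 1 to 4, with a log2 fold change of -0.085 (SE 0.41); its shChi3l1 libraries spanned the shSC range on both sides.

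Fdps, the farnesyl diphosphate synthase gene at the branch toward sterols and prenyl groups, had the smallest unadjusted p of the 6. Its levels were 6.17, 2.70 and 2.6 CPM in shChi3l1 1, 2 and 3 and 5.39, 4.49, 4.95 and 5.55 CPM in shSC 1 to 4. In shChi3l1 2 and 3 it lay below every shSC library, while shChi3l1 1 was the highest of all, and the log2 fold change was -0.41 (SE 0.44) with an edgeR adjusted p of 0.9998. Fdps reads are uncertain: 4 annotated copies match its transcript at 95% identity or more over at least 200 bases and hold 1188 reads over the 7 libraries against 885 for Fdps. Idi1 has 2 such copies, which hold 24 reads against 1338 for Idi1. Mvk and Mvd, encoding mevalonate kinase and mevalonate diphosphate decarboxylase, had log2 fold changes of -0.11 and 0.0026. Mvd ranged only from 16.9 to 25.6 CPM over the 7 libraries.

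Genes of the steps from squalene to cholesterol were spread around 0, with 7 of 11 log2 fold changes above it and a median of 0.021. Over the alternatives 3 to 9 of the 11 were above 0. Sqle, which encodes squalene epoxidase, a rate-limiting step (ENSMUSG00000022351.14, mm10 chromosome 15, 59315077 to 59331192, plus strand), had 11.9, 11.8 and 13.0 CPM in shChi3l1 1, 2 and 3 and 7.20, 14.1, 13.1 and 35.5 CPM in shSC 1 to 4. The 3 shChi3l1 libraries lay within the shSC range, which ran from the lowest library, shSC 1, to the highest, shSC 4. Its log2 fold change was -0.51 (SE 0.52). Tumour and glial lineage markers, 9 of 10 of them tested, were also highest in shSC 4: they summed to 265 CPM there, against 35.7 to 77.0 CPM in shChi3l1 libraries and 41.0 to 64.6 CPM in the other shSC libraries, with Olig2 and Aqp4 at 0 in some libraries; their part in the Sqle level was not tested. Without shSC 4 the Sqle log2 fold change was 0.091.

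Fdft1, the squalene synthase gene, had the smallest unadjusted p among these 11. It had 13.0, 13.9 and 16 CPM in shChi3l1 1, 2 and 3 and 15.2, 14.7, 25.4 and 18.2 CPM in shSC 1 to 4. Only shSC 3 and shSC 4 lay above the shChi3l1 range, and the log2 fold change was -0.36 (SE 0.34). Another gene, Ctsb, overlaps 18.8% of the exon bases of Fdft1, and 1 annotated copy, with 8 reads, matches its transcript. Other genes also overlap 26.7% of the exon bases of Fdps and 9.91% to 13.2% of those of Hmgcs1, Scap, Tm7sf2, Lpcat3 and Acsl1, and without strand such reads cannot be told apart. Ebp, the sterol isomerase gene, was the most abundant per length at 46.2 CPM per kilobase. Its levels were 134, 91.8 and 99.5 CPM in shChi3l1 1, 2 and 3 and 155, 87.5, 109 and 70.4 CPM in shSC 1 to 4. They formed 1 overlapping range with a log2 fold change of 0.042 (SE 0.36).

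The other 8 genes of this stretch make lanosterol or act on it and the sterols that follow. Msmo1, encoding the methylsterol monooxygenase that removes methyl groups from lanosterol products, had 138, 53.2 and 45 CPM in shChi3l1 1, 2 and 3 and 78.9, 51.5, 66.8 and 60.5 CPM in shSC 1 to 4. Only shChi3l1 1 exceeded the shSC range, and the log2 fold change was 0.29 (SE 0.43). Tm7sf2, a sterol reductase gene, was likewise highest in shChi3l1 1 at 14.0 CPM against 2.77 to 8.37 CPM elsewhere, with a log2 fold change of 0.48 (SE 0.51). Without shChi3l1 1 the log2 fold changes of Msmo1 and Tm7sf2 were -0.43 and -0.17. Cyp51, the lanosterol demethylase gene, was at -0.014, Lss, encoding lanosterol synthase, at 0.021, Nsdhl at 0.056 and Hsd17b7 at -0.030; the last 2 encode dehydrogenase and reductase steps in sterol demethylation. Sc5d, a sterol desaturase gene, was at 0.12 and Dhcr7, which encodes a reductase of the final step, at 0.0059. Sc5d was the steadiest of all 36, with a highest level 1.27-fold above its lowest.

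**Figure D3:**
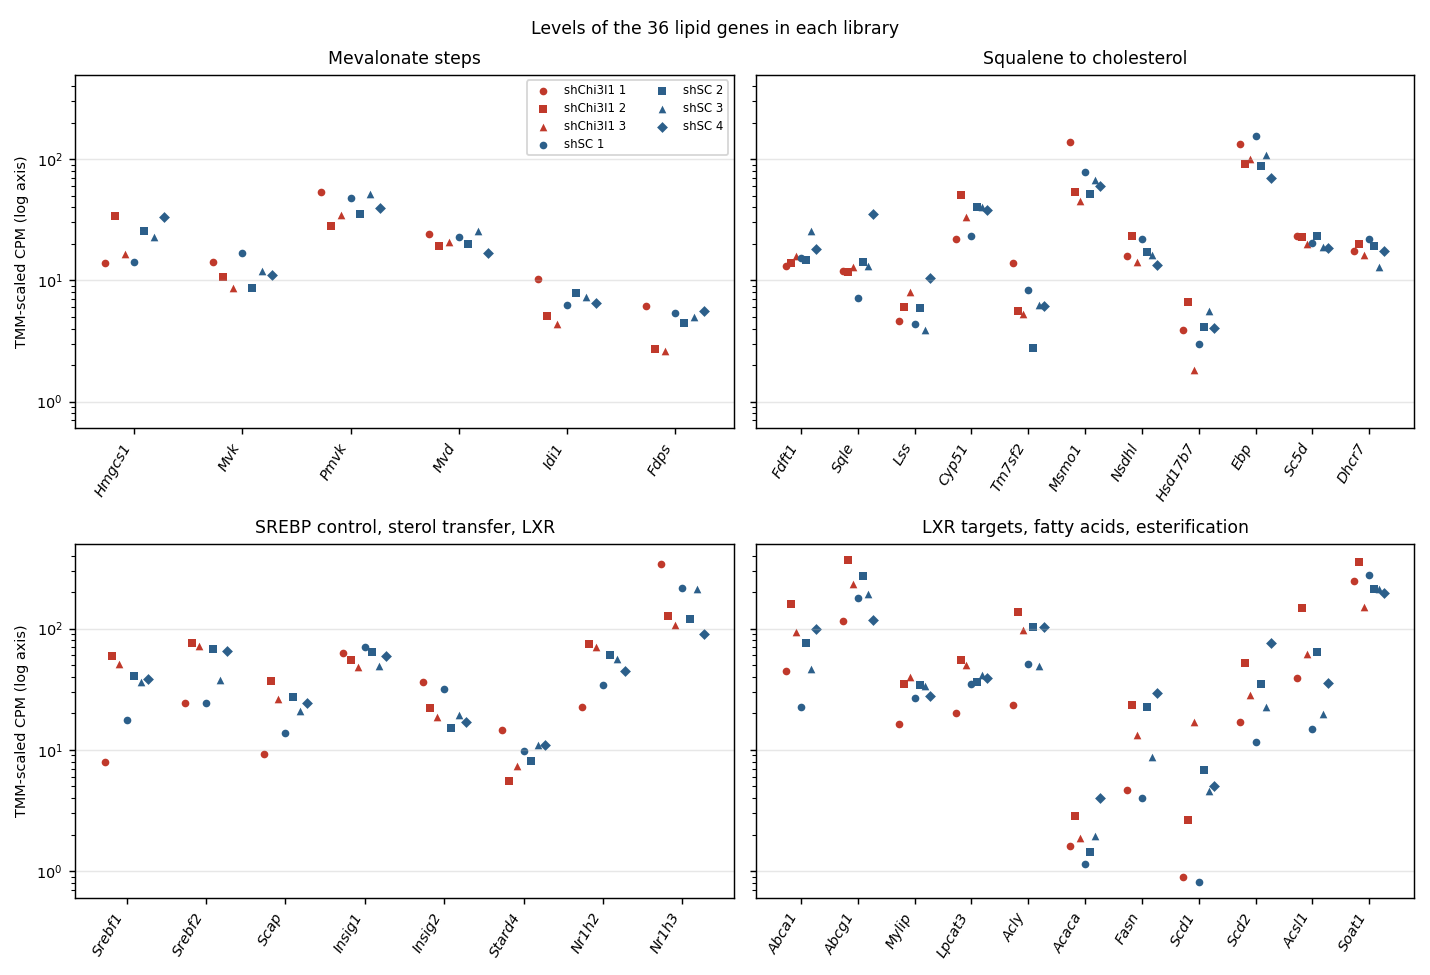
TMM-scaled CPM (vertical log axis) of each gene in each library, with 1 point per library, red for shChi3l1 and blue for shSC, and marker shape for the replicate number. Most sterol synthesis genes in the upper panels keep close together, whereas Srebf1, Abca1, Acly, Fasn, Scd1, Scd2 and Acsl1 spread widely; the circles of replicate 1 are the lowest 2 points for Srebf1, Abca1, Fasn, Scd1 and Scd2.

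The genes that control SREBP activity had 4 of 5 log2 fold changes above 0, and again none reached an unadjusted p under 0.05. The count was 1 of 5 without shChi3l1 2 and 2 of 5 without shSC 1. Srebf2, which encodes SREBP2, the main driver of cholesterol synthesis (ENSMUSG00000022463.8, mm10 chromosome 15, 82147181 to 82205379, plus strand), had 24.2, 76.6 and 72.3 CPM in shChi3l1 1, 2 and 3 and 24.1, 67.4, 37.8 and 64.9 CPM in shSC 1 to 4. It was lowest in shChi3l1 1 and shSC 1, at nearly the same level, and highest in shChi3l1 2 and 3, with a log2 fold change of 0.25 (SE 0.50). Srebf1, encoding SREBP1, which leads fatty acid synthesis, had 7.87, 59.1 and 51.1 CPM in shChi3l1 1, 2 and 3 and 17.7, 40.8, 36.3 and 38.3 CPM in shSC 1 to 4. It too was lowest in the replicate 1 libraries and highest in shChi3l1 2 and 3, with a log2 fold change of 0.24 (SE 0.61). Scap, the gene of the SREBP escort, had 9.24, 36.6 and 26.2 CPM in shChi3l1 1, 2 and 3 and 13.8, 27.0, 20.7 and 24.3 CPM in shSC 1 to 4, lowest in the same libraries and highest in shChi3l1 2, and a log2 fold change of 0.16 (SE 0.47). Without both replicate 1 libraries, the log2 fold changes of Srebf2, Srebf1 and Scap were 0.35, 0.48 and 0.35, and without shChi3l1 2 they were -0.013, -0.18 and -0.28.

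The INSIG genes did not share that order. Insig1, itself an SREBP target, had 62.8, 55.2 and 48.1 CPM in shChi3l1 1, 2 and 3 and 71.0, 63.8, 49.2 and 59.0 CPM in shSC 1 to 4, the most per length of the 5 at 18.9 CPM per kilobase. It varied only 1.48-fold between libraries and had a log2 fold change of -0.13 (SE 0.29). Insig2, the related gene, had 36.2, 22.3 and 18.5 CPM in shChi3l1 1, 2 and 3 and 31.6, 15.0, 19.5 and 17.1 CPM in shSC 1 to 4. Insig2 was highest in the replicate 1 libraries and had the smallest unadjusted p of the 5, with a log2 fold change of 0.30 (SE 0.39) and an edgeR adjusted p of 0.9998. Stard4, which encodes a protein that moves cholesterol between membranes, had 14.5, 5.50 and 7.40 CPM in shChi3l1 1, 2 and 3 and 9.72, 8.13, 11 and 11 CPM in shSC 1 to 4; its log2 fold change was -0.13 (SE 0.41), and shChi3l1 1 held the highest level and shChi3l1 2 the lowest.

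The 2 LXR genes differed most in shChi3l1 1, where Nr1h3 was at its highest and Nr1h2 at its lowest. Both fitted differences lay above 0, and neither kept that direction when each library was left out in turn. Nr1h3, encoding LXR alpha, the form enriched in macrophages, was the most abundant of the 36 genes per length at 69.1 CPM per kilobase. It had 341, 127 and 107 CPM in shChi3l1 1, 2 and 3 and 217, 120.1, 213 and 90.8 CPM in shSC 1 to 4. It was high in shChi3l1 1, shSC 1 and shSC 3 and lowest in shSC 4, with a log2 fold change of 0.26 (SE 0.51). Without shChi3l1 1 that value was -0.49, and without both replicate 1 libraries -0.30. Nr1h2, encoding the widely expressed LXR beta, had 22.6, 74.5 and 70.2 CPM in shChi3l1 1, 2 and 3 and 34.1, 60.7, 55.8 and 44.9 CPM in shSC 1 to 4. Nr1h2 was highest in shChi3l1 2 and 3, with a log2 fold change of 0.19 (SE 0.44), which was -0.080 without shChi3l1 2 and 0.39 without both replicate 1 libraries.

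Of the LXR targets, Abca1 had the largest fitted difference. Abca1 encodes the transporter that loads cholesterol onto lipid-poor apolipoproteins (ENSMUSG00000015243.4, mm10 chromosome 4, 53030787 to 53159895, minus strand). It had 45, 159 and 94.2 CPM in shChi3l1 1, 2 and 3 and 22.6, 76.7, 46.1 and 99.2 CPM in shSC 1 to 4, with 637 to 5347 reads per library. The groups overlapped: shChi3l1 2 was the highest, shSC 1 the lowest, and shChi3l1 1 lay below 3 of the shSC libraries. Abca1 had a log2 fold change of 0.70 (SE 0.56), with an edgeR adjusted p of 0.9998, and it became 0.18 without shChi3l1 2. Abcg1, whose product passes cholesterol to lipoprotein particles, was the most abundant target per length at 28.8 CPM per kilobase. Its levels were 115, 367 and 231 CPM in shChi3l1 1, 2 and 3 and 178, 270.2, 192 and 118 CPM in shSC 1 to 4. Abcg1 was lowest in shChi3l1 1 and shSC 4 and highest in shChi3l1 2, with a log2 fold change of 0.33 (SE 0.45); without shChi3l1 2 this was -0.14.

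The remaining LXR targets varied less. Mylip, whose product marks lipoprotein receptors for degradation, had 16.5, 34.7 and 40.1 CPM in shChi3l1 1, 2 and 3 and 26.9, 34.4, 33.5 and 27.6 CPM in shSC 1 to 4 and a log2 fold change of -0.0093 (SE 0.36). Lpcat3, encoding an acyltransferase that adds polyunsaturated chains to phospholipids, had 20.05, 54.9 and 49.7 CPM in shChi3l1 1, 2 and 3 and 34.6, 36.3, 41.0 and 39.3 CPM in shSC 1 to 4 and a log2 fold change of 0.14 (SE 0.38). Both were lowest in shChi3l1 1, and for Lpcat3 the other shChi3l1 libraries were the 2 highest of all. Soat1, which encodes the enzyme that stores cholesterol as esters, was plentiful, with 247, 355 and 151 CPM in shChi3l1 1, 2 and 3 and 278, 214, 211 and 196 CPM in shSC 1 to 4. Its shChi3l1 libraries held both the highest and the lowest level, and its log2 fold change was 0.16 (SE 0.37).

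Fatty acid genes varied most between libraries. Over the 6 genes the median ratio of the highest to the lowest library was 6.97, against 2.27 for the 19 SREBP targets, 2.97 for the 4 LXR targets, and 2.98 for 9613 tested genes with a mean of at least 100 counts. Acsl1, which encodes a long-chain acyl-CoA synthetase that activates fatty acids and is induced in inflammatory macrophages, had the largest fitted difference and the smallest unadjusted p of all 36 genes (ENSMUSG00000018796.13, mm10 chromosome 8, 46471037 to 46536051, plus strand). It had 38.9, 148 and 61.6 CPM in shChi3l1 1, 2 and 3 and 14.9, 63.7, 19.7 and 35.7 CPM in shSC 1 to 4, with 421 to 4979 reads per library. The shChi3l1 levels reached above the shSC range only in shChi3l1 2, and shChi3l1 1 and 3 lay among the shSC libraries. For Acsl1 the fitted log2 difference was 1.31 (SE 0.60), with an unadjusted p of 0.0563 and an adjusted p of 0.9998 from edgeR; it became 0.58 without shChi3l1 2.

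Scd1 and Scd2 encode stearoyl-CoA desaturases, which make monounsaturated fatty acids. Scd2 was the more abundant per length, at 6.36 against 1.10 CPM per kilobase, and had 16.8, 52.2 and 28.3 CPM in shChi3l1 1, 2 and 3 and 11.7, 34.9, 22.6 and 76.6 CPM in shSC 1 to 4. Scd2 was highest in shSC 4 and lowest in the replicate 1 libraries, with a log2 fold change of -0.17 (SE 0.63). Scd1 had 0.894, 2.64 and 16.95 CPM in shChi3l1 1, 2 and 3 and 0.816, 6.78, 4.61 and 4.99 CPM in shSC 1 to 4, resting on 21 to 417 reads, and a log2 fold change of 0.67 (SE 0.95). Its high value in shChi3l1 3 set that difference: without this library the log2 fold change was -1.27. Microglia markers, with 8 of 8 tested and none at 0, were higher in shChi3l1 for 5 of 8 at an unadjusted edgeR p under 0.05, against 0.906% of all genes. Of the 8, 1 had groups that did not overlap, against 1.24% of all genes higher in shChi3l1 in this way. The mean log2 CPM of the microglia markers differed within replicates 1, 2 and 3 by -0.30, 1.08 and 3.55, shChi3l1 minus shSC. The markers summed to 3716 CPM in shChi3l1 3, against 958 to 1660.4 CPM in the other shChi3l1 libraries and 754 to 1310.0 CPM in shSC libraries. B-cell markers, with 5 of 6 tested and Pax5 at 0 in some libraries, summed to 325 CPM there, against 26.3 to 56.8 CPM and 17.03 to 195 CPM. Their part in the Scd1 level was not tested. Scd1 and Scd2 share a stretch of 623 bases at 95.5% identity, between which reads can be misassigned.

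Fasn and Acly encode fatty acid synthase and ATP citrate lyase, which supplies its acetyl-CoA. Fasn had 4.64, 23.6 and 13.2 CPM in shChi3l1 1, 2 and 3 and 4.01, 22.7, 8.80 and 29.5 CPM in shSC 1 to 4, low in both replicate 1 libraries and highest in shSC 4, with a log2 fold change of -0.23 (SE 0.73). Acly had 23.5, 138 and 97.4 CPM in shChi3l1 1, 2 and 3 and 51.2, 103, 49.4 and 104 CPM in shSC 1 to 4, the most per length of the 6 at 15.3 CPM per kilobase, with a log2 fold change of 0.17 (SE 0.57). Acaca, the acetyl-CoA carboxylase gene, was scarce, with 32 to 96 reads per library and 1.13 to 4.04 CPM, and was at -0.013 (SE 0.57). Its reads are uncertain too: 1 annotated copy, with 38 reads over the 7 libraries, matches its transcript over 6118 bases at 99.2% identity. Fasn, Scd2, Acaca, Sqle and Lss were highest in shSC 4, which is 5 of the 36 genes (13.9%), a share near the 14.1% of all tested genes that were highest there.

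Within same-numbered replicates, Abca1 and Acsl1 were higher in the shChi3l1 library by similar factors each time. The labels pair replicates 1 to 3 of the groups in a figure of the study, without naming a shared mouse, litter or day. Abca1 was 1.99, 2.07 and 2.04 times as high in shChi3l1 as in shSC in replicates 1, 2 and 3. For Acsl1 the factors were 2.6, 2.32 and 3.13. These factors and the blocked fit below depend on the numbering. Deviations from the group mean in shChi3l1 3 correlated at 0.247 with shSC 3 but at 0.537 with shSC 2. Abca1 was at 94.2 CPM in shChi3l1 3 and 76.7 CPM in shSC 2, and Acsl1 at 61.6 and 63.7 CPM. A fit to the other 6 libraries, blocked on replicate number and so without shSC 4, was also made: edgeR gave log2 fold changes of 1.02 (SE 0.20) for Abca1 and 1.41 (SE 0.22) for Acsl1. Their unadjusted p were 0.00218 and 0.000655, and both adjusted p were 1, so neither passed over all genes. Those 2 were the only members at an unadjusted p under 0.05 in that fit, where 2.91% of all genes were, and 0% of genes were called. With the block and each library's length trend as an offset, the values were 0.77 and 1.16, with unadjusted p of 0.0126 and 0.00162.

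Over all 36 genes, 6 (16.7%) were higher in shChi3l1 in each of the 3 replicates, against 12.5% of all tested genes: Lss, Srebf2, Abca1, Fasn, Scd2 and Acsl1. Fdft1 and Insig1 were lower in each, 2 of 36 (5.56%) against 10.7% of all genes. The factors for Scd2 were 1.44, 1.5 and 1.26 and those for Srebf2 1.00, 1.14 and 1.91. For Fdft1 they were 0.859, 0.945 and 0.631, and for Insig1 0.884, 0.865 and 0.977. Abcg1 and Lpcat3 did not follow Abca1: they were at 0.644 and 0.579 in replicate 1, and above 1 in replicates 2 and 3. Macrophage markers, all 10 of 10 with log2 fold changes above 0, differed within replicates 1, 2 and 3 by -0.18, 0.55 and 0.89 in mean log2 CPM, and in replicates 1, 2 and 3 the shChi3l1 library was the higher for 4, 8 and 8 of the 10. Their summed level in replicate 1 was 34668 CPM in shChi3l1 against 15689 CPM in shSC, most of it from Lyz2. The part of these markers in the Abca1 and Acsl1 levels was not tested.

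**Figure D4:**
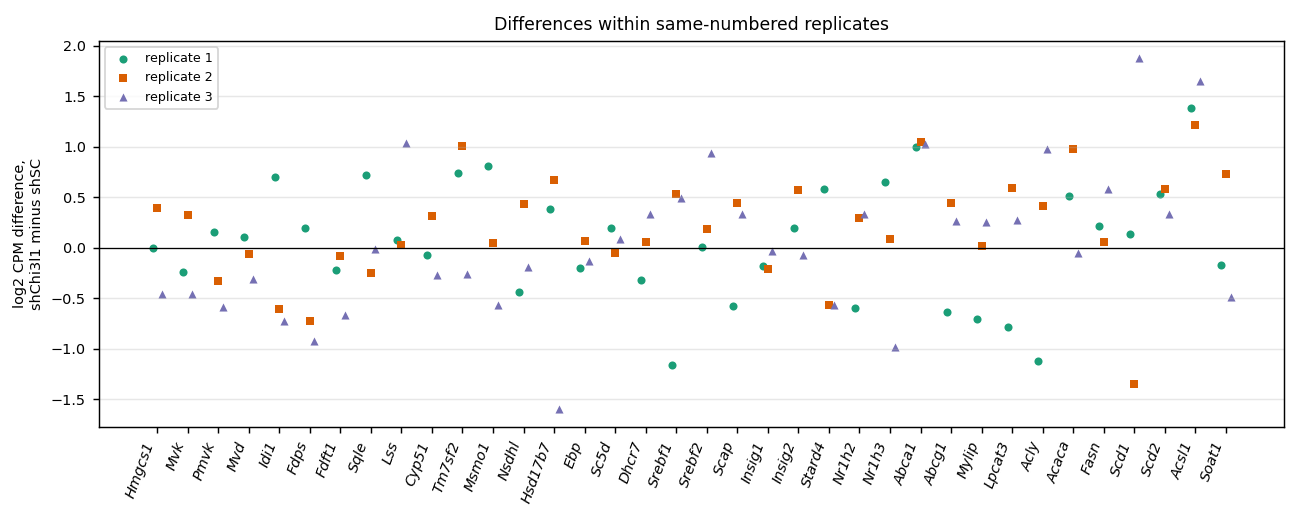
Difference in log2 CPM (vertical axis, shChi3l1 minus shSC) within replicates 1, 2 and 3 for each of the 36 genes. The 3 points of Abca1 nearly coincide at about 2-fold and those of Acsl1 all lie above 1, while most other genes have points on both sides of 0.

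The level of each set was also compared library by library. The mean log2 CPM of the 19 SREBP targets, each centred on its own mean, was 0.18, -0.050 and -0.26 in shChi3l1 1, 2 and 3 and 0.024, -0.074, 0.068 and 0.12 in shSC 1 to 4. That of the 4 LXR targets was -0.77, 0.74 and 0.40 in shChi3l1 1, 2 and 3 and -0.48, 0.21, -0.058 and -0.044 in shSC 1 to 4. For the 6 fatty acid genes it was -1.0, 0.80 and 0.56 in shChi3l1 1, 2 and 3 and -1.28, 0.48, -0.33 and 0.77 in shSC 1 to 4. SREBP targets stayed within a range of 0.44, whereas LXR targets covered 1.51 and fatty acid genes 2.07 on the log2 scale. As the SREBP set holds no fatty acid gene, its range describes the sterol synthesis genes, Insig1 and Stard4 only. Where LXR targets were lowest, in shChi3l1 1 and then shSC 1, SREBP targets were at the highest and the fourth highest of their 7 values. The SREBP minus LXR value was 0.95, -0.79 and -0.66 in shChi3l1 1, 2 and 3 and 0.51, -0.29, 0.13 and 0.16 in shSC 1 to 4, highest in both replicate 1 libraries, and its difference within replicates 1, 2 and 3 was 0.44, -0.50 and -0.79.

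Long-transcript representation moved with these sets. In 12 of the 36 genes, 33.3%, the replicate 1 libraries were the 2 lowest, against 19.6% of all tested genes and 34.5% of those over 5000 bases. These were Srebf1, Srebf2, Scap, Nr1h2, Abca1, Mylip, Lpcat3, Fasn, Scd1, Scd2, Hmgcs1 and Cyp51. The share for genes over 5000 bases does not cover all of them. Mylip, Lpcat3, Nr1h2, Cyp51, Hmgcs1 and Scd1 are shorter, with 3233 to 4892 exon bases. Over all genes of 2000 to 5000 bases the centred median was -0.049 in shChi3l1 1 and 0.14 in shSC 1. Exon lengths had a median of 7973.5 bases in the fatty acid genes, 5283 in the LXR targets and 4403 in the SREBP targets. With each library's trend with length removed, a step added after seeing the data, the range narrowed to 1.10 for LXR targets and 1.13 for fatty acid genes and widened to 0.64 for SREBP targets. The LXR values were then -0.56, 0.54 and 0.31 in shChi3l1 1, 2 and 3 and -0.056, 0.0093, -0.016 and -0.23 in shSC 1 to 4, and the replicate 1 libraries were the 2 lowest for 0 of 4 LXR targets. They were then the 2 lowest for 7 of 36 genes (19.4% against 10.6% of all genes): Fasn, Scd1, Scd2, Srebf1, Srebf2, Nr1h2 and Cyp51. They were the 2 highest for 13 of 36 (36.1%) and for 10 of 19 SREBP targets (52.6%), against 20.1% of all genes, where before they had been so for 6 of 36 and 4 of 19. The SREBP values were then 0.31, -0.17 and -0.33 in shChi3l1 1, 2 and 3 and 0.30, -0.23, 0.074 and 0.036 in shSC 1 to 4. Macrophage markers were on average low in the replicate 1 libraries and in shSC 3. Their mean centred log2 CPM, not adjusted for length, was -0.59, 0.82 and 0.38 in shChi3l1 1, 2 and 3 and -0.41, 0.27, -0.51 and 0.046 in shSC 1 to 4. The markers did not share 1 order: Csf1r and Mertk were lowest in the replicate 1 libraries, while Aif1 and Fcgr1 were highest there. What part the length trend or the marker level had in the LXR and fatty acid values was not tested.

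**Figure D5:**
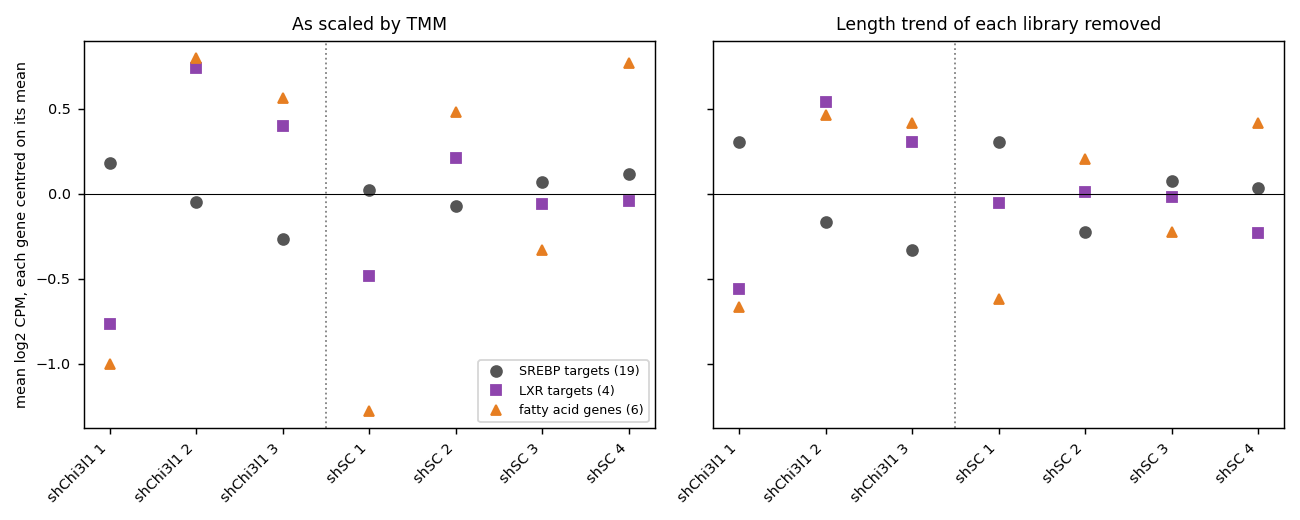
Mean log2 CPM of each set, every gene centred on its mean over 7 libraries (vertical axis), by library, with shChi3l1 left and shSC right of the dotted line. As scaled, LXR targets and fatty acid genes are low in shChi3l1 1 and shSC 1 while SREBP targets stay near 0; with the length trend removed, LXR targets are lowest in shChi3l1 1 and shSC 4, fatty acid genes remain lowest in shChi3l1 1 and shSC 1, and SREBP targets are highest in these replicate 1 libraries.

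Other lipid genes, from 3 lists, gave 0 calls as well. Of 20 further synthesis genes 19 were tested, 0 passed in either direction, and 8 were above and 11 below 0, at a median log2 difference of -0.046. Fads2, a fatty acid desaturase gene, was at -1.04 (SE 0.70) and Elovl6, an elongase gene, at -1.33 (SE 0.90). Both were highest in shSC 4. Fads2 had 13.4 CPM there against 1.28 to 4.86 CPM elsewhere, and Elovl6, with 8 to 165 reads, 7.09 against 0.284 to 2.26 CPM. Within replicate 1 both were higher in shChi3l1, by 1.27 and 2.33 in log2 CPM, and within replicates 2 and 3 lower. Of 15 genes for sterol handling and storage 0 passed, with 9 above 0 and a median of 0.095. Cd36, encoding a fatty acid and lipoprotein scavenger receptor, had a mean of 69.5 ± 25.2 CPM over the shChi3l1 libraries (SD, n = 3) against 129.6 ± 88.7 CPM for shSC (SD, n = 4), at -0.90 (SE 0.53). Its groups overlapped: shSC 1 had 259 CPM, the other shSC libraries 62.4 to 109 CPM and the shChi3l1 libraries 44.8 to 95.2 CPM. Plin2, which coats lipid droplets, had a mean of 327 ± 103 CPM over the shChi3l1 libraries (SD, n = 3) against 465 ± 47.0 CPM for shSC (SD, n = 4), at -0.51 (SE 0.34), with overlapping groups. Of 10 fatty acid oxidation genes 0 passed, 4 were above 0 and the median was -0.030; Cpt1a, which admits fatty acids to mitochondria, was at 0.39 (SE 0.63) and Slc25a20, the carnitine carrier gene, at -0.17 (SE 0.34).

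Transcripts of other cell types that make much sterol or that divide were present at these levels. Oligodendrocyte and myelin markers, of which 6 of 8 were tested, summed to 135 to 324 CPM in shChi3l1 and 107 to 232 CPM in shSC libraries, with Mog, Mobp, Cldn11 and Mal at 0 in some libraries. Proliferation genes were below 0 in 12 of 12, at a median log2 difference of -0.67, where 57.6% of all tested genes were above 0. Of these, 0 passed the adjusted threshold and 3 were lower at an unadjusted edgeR p under 0.05, against 0.576% of all genes. In 3 of 12 the shChi3l1 levels lay below the shSC range without overlap, against 1.25% of all genes. Summed, they were at 349 to 489 CPM in shChi3l1 and 451 to 731 CPM in shSC libraries. The highest proliferation sums were in shSC 1 and shSC 4, which held the lowest and the highest Sqle level; the part of any of these lists in the lipid genes' levels was not tested. Summed levels of the remaining lists overlapped between groups. Endothelial markers, 6 of 6 tested with Tek at 0 in some libraries, were 26.7 to 124 CPM in shChi3l1 and 21.8 to 69.6 CPM in shSC libraries, and fibroblast and pericyte markers, 3 of 6 tested with Rgs5 alone never at 0, were 0.724 to 13.9 CPM in shChi3l1 and 0.532 to 8.08 CPM in shSC libraries. T and NK cell markers, 6 of 6, were 66.4 to 425 CPM in shChi3l1 and 61.7 to 540.1 CPM in shSC libraries, and dendritic cell markers, 6 of 6, were 518 to 842 CPM in shChi3l1 and 208 to 1277 CPM in shSC libraries. Neutrophil markers, 2 of 6, were 3.71 to 70.6 CPM in shChi3l1 and 3.79 to 29.8 CPM in shSC libraries, with S100a9, Ly6g, Retnlg and Elane at 0 in some libraries.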

How the data were processed

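Sorted macrophages were profiled by RNA sequencing, and the authors deposited a file for each library that lists every gene's raw count (a whole number), its exons and its length. Per the submitters' processing notes, Trim Galore, HISAT2 and featureCounts were used, with build mm10. Their versions and settings: not given in the sources used here. Per the labels' protocols, cDNA came from a low-input SMART-seq kit and libraries from Nextera XT. The latter does not mark strand, so overlapping genes cannot be told apart. Amplification noise cannot be separated from the rest of the spread between libraries.

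Of 55385 gene IDs, 55144 matched a gene symbol by ID (version ignored). Groups and replicate numbers came from sample titles. Genes passing filterByExpr at a minimum count of 10 were kept, and TMM factors computed. Counts were tested over all 7 libraries with edgeR 4.0.16 (robust quasi-likelihood, R 4.3.3), hairpin as the only term, Benjamini-Hochberg over 15448 genes. On simulated counts with known changes this test called 0% of 2-fold, 24% of 4-fold, 76% of 8-fold and 90% of 16-fold changes, with 7 false calls. Logarithms used 0.5 added counts. Per-length levels are CPM per kilobase. SEs come from the F statistic. Near-identical copies were sought with BLAST 2.17.0 at 95% identity over 200 bases. Every pair of libraries differed by more than sampling noise. Same-numbered libraries' deviations from group means correlated at 0.619, 0.511 and 0.247 over 9372 genes, above the limit of 0.1 set for pairing; so did 2 differently numbered pairs (shChi3l1 3 with shSC 2, 0.537, and shChi3l1 2 with shSC 4, 0.343).

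Members and lists were chosen with earlier results of these data known. Values in every library are given for members whose groups do not overlap (none), and in each role for the member of smallest unadjusted p and the most abundant per length, plus 15 fixed names; in other lists the 2 of smallest p are named. Alternatives were DESeq2 1.42.0 factors and Wald test, upper quartile factors, 2 other filters, limma 3.58.1 voom, left-out libraries, the block and loess length offsets (span 0.5); leaving out both replicate 1 libraries, and set levels without the length trend, were added after seeing the data.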

Additional observations from a re-analysis of the deposited data

Results flagged for a closer look

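Cyp51 in shSC 1 was at 23.3 CPM, away from the other 3 shSC libraries, which lay between 38.2 and 40.5 CPM. Its distance to the nearest of them was 0.867 of the group's range, above Dixon's critical value of 0.829 for 4 samples. It was the only case among 39 sets of shSC values examined in this way, and chance flags about 1 in 20. In the shChi3l1 group, which at 3 libraries is too small for this rule, Cyp51 was likewise lowest in replicate 1, at 22.0 CPM.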

How the results depend on the processing

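No lipid gene passed an adjusted p of 0.05 under any of the 18 refits, in which the smallest member adjusted p was 0.75. Over all genes 0 were called in every refit except DESeq2's Wald test, which called 1, a gene outside these 36. The SREBP median moved beyond the spread between libraries only without shChi3l1 1, with a range of -0.185 to 0.024 when each library was left out. The SREBP minus LXR difference stayed between -0.71 and 0.031. With the replicate block the SREBP median was -0.089 and the LXR median 0.031, and the block changed no call. Of 648 member values under alternatives, 513 kept their direction and 135 turned, none of them called in either fit; the cause was not tested. Abca1 and Acsl1 (above 0) and Fdft1, Fdps and Insig1 (below 0) kept their direction in all 18 refits. Reads per library were fewest for Scd1, Acaca and Hsd17b7.

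Without shChi3l1 3 and shSC 4 the turned log2 fold changes were Hmgcs1 0.20, Mvk 0.0018, Mvd -0.071, Idi1 0.10, Sqle 0.044, Cyp51 0.056, Hsd17b7 0.30, Ebp -0.055, Stard4 0.051, Nr1h2 -0.048, Acaca 0.57, Fasn 0.25, Scd1 -1.19 and Scd2 0.58. With DESeq2 size factors the turned log2 fold changes were Mvd -0.046, Lss -0.028, Ebp -0.013 and Dhcr7 -0.045. With upper quartile factors the turned log2 fold changes were Mvd -0.034, Lss -0.054, Nsdhl -0.00065 and Dhcr7 -0.040. With no low-count filter the turned log2 fold changes were Mvd -0.069, Lss -0.036, Nsdhl -0.0064, Ebp -0.042 and Dhcr7 -0.066. With at least 10 counts required in every library of a group the turned log2 fold changes were Mvd -0.0015. With DESeq2's Wald test the turned log2 fold changes were Mvd -0.047, Lss -0.027, Ebp -0.013 and Dhcr7 -0.044. With voom and sample quality weights the turned log2 fold changes were Mvd -0.072, Cyp51 0.0061, Msmo1 -0.19, Nr1h3 -0.20, Mylip 0.14, Acaca 0.24, Fasn 0.061 and Scd2 0.13. Without both replicate 1 libraries the turned log2 fold changes were Mvd -0.10, Cyp51 0.037, Msmo1 -0.32, Nr1h3 -0.30 and Mylip 0.20. With the replicate block the turned log2 fold changes were Mvd -0.092, Sqle 0.15, Nsdhl -0.067, Ebp -0.089, Srebf1 -0.024, Nr1h3 -0.080, Acaca 0.48, Fasn 0.28 and Scd2 0.48. With the replicate block and length trend offsets the turned log2 fold changes were Mvd -0.040, Sqle 0.024, Msmo1 -0.051, Nsdhl -0.048, Ebp -0.054, Sc5d -0.014, Dhcr7 -0.11, Srebf1 -0.15, Scap -0.12, Nr1h3 -0.052, Abcg1 -0.16, Acly -0.0026, Acaca 0.14, Fasn 0.018, Scd2 0.36 and Soat1 -0.23. With length trend offsets the turned log2 fold changes were Lss -0.032, Dhcr7 -0.088, Scap -0.0065 and Soat1 -0.076. Leaving out each library in turn gave these ranges of log2 fold change: Abcg1 -0.14 to 0.63, Acaca -0.30 to 0.49, Acly -0.35 to 0.58, Cyp51 -0.36 to 0.20, Dhcr7 -0.20 to 0.089, Ebp -0.18 to 0.26, Fasn -0.87 to 0.22, Hmgcs1 -0.65 to 0.041, Hsd17b7 -0.56 to 0.32, Idi1 -0.59 to 0.13, Insig2 -0.079 to 0.54, Lpcat3 -0.12 to 0.43, Lss -0.21 to 0.39, Msmo1 -0.43 to 0.56, Mvd -0.14 to 0.071. For the other members that turned they were Mvk -0.36 to 0.055, Mylip -0.26 to 0.26, Nr1h2 -0.080 to 0.54, Nr1h3 -0.49 to 0.54, Nsdhl -0.19 to 0.20, Pmvk -0.52 to 0.0078, Scap -0.28 to 0.52, Scd1 -1.27 to 1.18, Scd2 -0.69 to 0.49, Soat1 -0.18 to 0.42, Sqle -0.82 to 0.091, Srebf1 -0.18 to 0.70, Srebf2 -0.013 to 0.59, Stard4 -0.66 to 0.13 and Tm7sf2 -0.17 to 0.72.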
